A study of Mus musculus with 28 samples.

Results

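All 16 sequencing libraries of primary cortical neurons, of the 28 libraries in the series, were compared by library kind, with 8 libraries of ribosome footprints set against 8 libraries of total mRNA. Members were chosen by cell type and library kind alone, without use of a measured value, and each footprint library was paired with the total mRNA library of the same culture, meaning the same genotype and replicate number. The question was which protein-coding mRNAs carried many or few ribosomes for the amount of mRNA present. The neurons came from C57BL/6J mouse cortices taken on embryonic day 16 and were grown for 14 days in vitro with the antimitotic Ara-C, which limits dividing cells. Cultures were of 3 genotypes: non-transgenic WT littermates (2 cultures, numbered 2 and 3), hemizygous carriers of human TDP-43 (hTDP-43, 3 cultures) and hemizygous carriers of the patient mutant hTDP-43 A315T (3 cultures), with both transgenes driven by the mouse prion promoter. All cultures were pooled here for the comparison of library kinds, and the genotypes were compared separately. The sources do not say how many embryos made up a culture, and libraries of 1 replicate number carry 1 date in the labels, so p-values measure the spread between these 8 cultures.

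In ribosome profiling, lysates are digested with nuclease so that only the short stretch of mRNA inside each ribosome survives, and these footprints are sequenced. A gene's footprint reads depend on how much of its mRNA is present and on how many ribosomes sit on each copy, and dividing by the total mRNA reads of the same culture leaves the ribosome density per mRNA. Footprints lie mostly on coding sequence, whereas reads of fragmented total mRNA cover UTRs as well. Initiation is controlled through features of the 5′ UTR, among them upstream ATG codons, terminal oligopyrimidine (TOP) tracts at the mRNA start, and iron-responsive hairpins bound by iron regulatory proteins. In this series the total mRNA was selected for poly(A) tails, and the footprints were not.

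Depth differed between libraries and limits the precision of each culture. Reads assigned to genes ran from 166064 to 2528820 in the footprint libraries and from 600385 to 6969578 in the total mRNA libraries, so that 3 reads correspond to 1.19 to 18.1 CPM (read counts scaled to library size) in footprints and to 0.430 to 5.00 CPM in total mRNA. The shallowest footprint library was hTDP-43 replicate 3. Protein-coding genes took 86.7% to 95.5% of footprint reads and 86.9% to 96.9% of total mRNA reads. Lars2, the mitochondrial leucyl-tRNA synthetase, was the gene with the most reads in all 8 total mRNA libraries, at 3.09% to 18.8% of reads, and 2 cultures stood apart in this, WT replicate 3 (18.8%) and hTDP-43 replicate 3 (14.1%). In footprints the leading gene was Gm37194, an unclassified locus, in 5 libraries, the antisense gene Gm14236 in 2 and Yipf1 in 1. Neuronal markers summed to between 7693 and 9128 CPM in footprints and between 4940 and 5713 CPM in total mRNA. Astrocyte markers reached 242 to 431 and 216 to 562 CPM, oligodendrocyte markers 30.9 to 61.8 and 53.7 to 113 CPM, and vascular and fibroblast markers 7.12 to 40.0 and 6.26 to 23.9 CPM. Microglial markers stayed between 0 and 3.47 CPM in footprints and between 0.986 and 6.95 CPM in total mRNA, with Tmem119 at 0 in every footprint library.

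Ribosome density differed widely between mRNAs. Of 10227 protein-coding genes that passed a filter on low counts, 6469 (63.3% of those tested) differed between footprints and total mRNA (edgeR quasi-likelihood test with the culture as a block, Benjamini-Hochberg adjusted p under 0.05). Of these, 3073 (30%) were higher in footprints and 3396 (33.2%) were lower. At least 2-fold differences were called for 853 genes higher (8.34%) and 1357 lower (13.3%). The values of the 8 footprint libraries and the 8 total mRNA libraries did not overlap for 2443 genes (23.9%), and the ratio had the same sign in all 8 cultures for 4126 (40.3%). The ratios below are log2 differences, footprint minus total mRNA, after TMM scaling, so a value of 0 lies near the typical gene and is no absolute count of ribosomes.

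The lower tail was longer than the upper one. The median log2 ratio of the protein-coding genes was −0.03, the 5th percentile −1.50 and the 95th percentile 1.17, which is a 6.35-fold range, and the 90th and 10th percentiles (0.93 and −1.16) were 4.27-fold apart. The 1st percentile lay at −2.23 and the 99th at 1.61. Ranked across genes, the ratios of 2 cultures correlated with a Spearman coefficient of 0.417 to 0.884 (median 0.657 over 28 pairs of cultures). The median was 0.677 for the 7 pairs of the same genotype and 0.649 for the 21 pairs of different genotypes. These correlations run across genes, which are not independent replicates, and are given as a description. Of the tested genes, 6420 passed the filter through both library kinds, 3274 through total mRNA alone and 20 through footprints alone, and 513 passed only with both kinds combined, so a gene with few ribosomes on an abundant mRNA was more likely to be measured than the reverse.

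**Figure D1:**
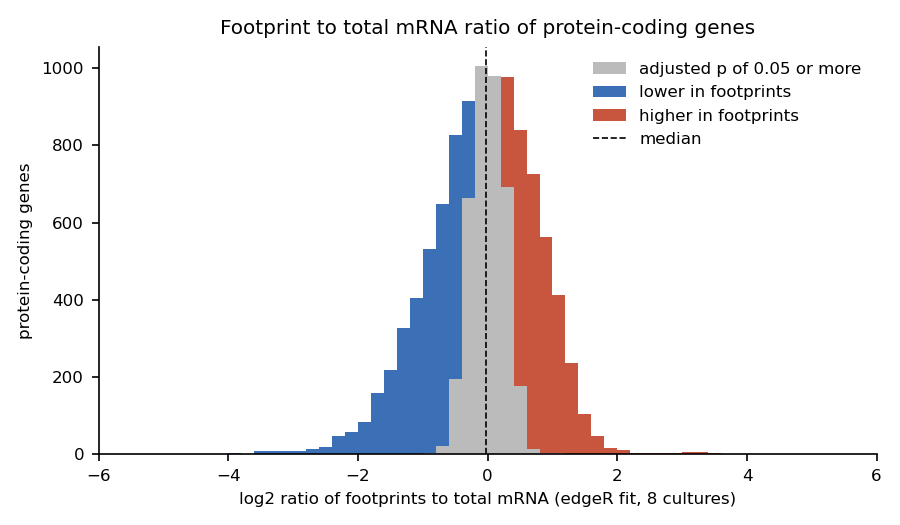
Histogram of the log2 ratio of footprints to total mRNA for 10227 protein-coding genes (x axis: log2 ratio from the edgeR fit over 8 cultures, y axis: number of genes). Stacked colours separate genes called higher in footprints (3073), called lower (3396) and not called, and the dashed line marks the median of −0.03.

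The highest ratios belonged to mRNAs of replication-dependent histones, the proteins around which newly copied DNA is wound. Background knowledge holds that these mRNAs end in a short stem-loop in place of a poly(A) tail. Of 66 listed genes, 17 could be tested, of which 15 were higher in footprints, 1 was lower and 1 was not called, with a median log2 ratio of 3.17 against −0.03 for all protein-coding genes. The filter on low counts was passed in both kinds by 5 of the 17, through footprints alone by 4, through total mRNA alone by 1 and with the kinds combined by 7, so the count and median cover only part of the family. Entry through footprints alone admits high ratios more readily than low ones, so the count and median are no test of the family. Hist1h4d, Hist2h4 and Hist1h4c passed in both kinds. Hist1h4d, an H4 gene on chromosome 13, had 96.0, 165 and 236 CPM (lowest, median, highest) in footprints and 6.69, 10.7 and 54.6 CPM in total mRNA. Every footprint library lay above every total mRNA library, and the log2 ratio was 3.53 (SE 0.24, edgeR adjusted p = 4.32e-09), an 11.6-fold difference. Hist2h4, an H4 gene on chromosome 3, had 87.0, 137 and 222 CPM in footprints against 7.46, 9.82 and 37.5 CPM, again without overlap (log2 ratio 3.35, SE 0.19, adjusted p = 1.1e-09). Hist1h4c was at 61.8, 69.6 and 101 CPM against 3.56, 8.14 and 23 CPM (3.29, SE 0.24, adjusted p = 1.17e-08). Linker histone genes behaved alike in direction, with Hist1h1e at 44.4, 57.5 and 64.8 CPM in footprints and 1.97, 5.08 and 19.6 CPM in total mRNA (3.11) and Hist1h1c at 63.1, 93.3 and 123 against 22.6, 26.5 and 44.4 CPM (1.70). The exception, Hist3h2a, had 0, 1.37 and 6.18 CPM in footprints and 4.17, 14.0 and 16.7 CPM in total mRNA (−3.33), and its exons overlap other annotated genes. Hist1h2bc, at 5.98, 10.1 and 13.6 CPM against 2.99, 7.48 and 14.0 CPM, was not called (0.22, adjusted p = 0.382). H4 genes are nearly identical in coding sequence, so unique assignment of a footprint to 1 copy is uncertain. Because total mRNA was poly(A)-selected, missing tails and ribosome density cannot be told apart for these genes.

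The stem-loop was read from the transcript models (GENCODE vM21 on GRCm38.p6) to see which of the measured histone mRNAs hold it. The pattern searched, in the first 150 bases after the coding sequence and on the mRNA strand only, was a perfect stem of 6 base pairs that starts with GG, closed by a loop of 4 bases that starts with TT. It was present in 15 of the 17 tested histone genes (88.2%) and in 6 of 10013 other genes (0.0599%), or 21 of all 10030 genes with enough sequence (0.209%). Below, the stem and loop are in capitals and the flanks in lower case, for the genes at the top of the range and for the histone that went the other way.
Hist1h4d (chr13:23581945-23581972, plus strand, GRCm38.p6): ccaaaGGCCCTTTTCAGGGCCactacct
Hist2h4 (chr3:96262932-96262959, minus strand): ctaacGGCCCTTTTTAGGGCCaaccaca
Hist1h3e (chr13:23561896-23561923, minus strand): aaaacGGCTCTTTTAAGAGCCacctcca
Hist1h1e (chr13:23621775-23621802, minus strand): ccaaaGGCTCTTTTCAGAGCCacccaca
Hist3h2a (chr11:58955167-58955194, plus strand): ccaaaGGCTCTTTTCAGAGCCacccaca

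Hist3h2a carries the same 28 bases as Hist1h1e, while their log2 ratios were −3.33 and 3.11. The 6 other genes that hold the pattern were spread on both sides of 0, with log2 ratios of 0.76 for Cdc40, −0.24 for H2afx, −0.37 for Dgkq, −0.77 for Bicra, −1.03 for Ttc14 and −1.21 for Rps6ka2. H2afx, the DNA damage histone variant, has an mRNA made in both tailed and stem-loop forms, and its ratio did not pass the test (adjusted p = 0.105). A match is a description of these letters and no evidence that the hairpin is used.

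Beyond histones, 12 more genes made up the 15 highest ratios among 2139 genes that met the naming rule. Tdrd6 (chr17:43615335-43630299, GRCm38), a Tudor-domain protein of germ cell granules, stood at 345, 766 and 1259 CPM in footprints and 25.5, 41.3 and 162 CPM in total mRNA. No footprint library overlapped the total mRNA range, and the log2 ratio was 3.55 (SE 0.22, adjusted p = 2.28e-09, 11.7-fold). Cybb, the catalytic subunit of the phagocyte NADPH oxidase, had 150, 377 and 723 CPM against 12.6, 22.4 and 219 CPM (3.40, SE 0.28, adjusted p = 3.63e-08), with an overlap between the kinds although microglial markers were near 0. Kl, the gene of the ageing-related hormone co-receptor Klotho, had 1574, 2458 and 6073 CPM against 105, 307 and 586 CPM (3.24, SE 0.24, adjusted p = 9.66e-09). Dact3, a modulator of Wnt signalling, had 3074, 4279 and 9377 CPM against 539, 883 and 1371 CPM (2.57, SE 0.17, adjusted p = 4.76e-09). These genes were counted far more highly in footprints than in total mRNA, where Dact3 was itself abundant. Where on each gene the reads lie was not tested, since the files give 1 count per gene.

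Several of these 15 had ratios that differed greatly between cultures. Stag3, a meiotic cohesin subunit, ran from 1.74 to 1601 CPM in footprints (median 34.5) and from 1.71 to 126 CPM in total mRNA (median 19.5), and its log2 ratio of 2.56 (SE 0.41, adjusted p = 4.6e-05) covers cultures between 0.02 and 3.74. Tollip, an adaptor of Toll-like receptor signalling, ran from 0.33 to 3.37 (fitted 2.00). Ttll6, Ip6k3 and Parp12 had fitted log2 ratios of 3.21, 3.00 and 2.62 with overlapping library kinds. Ttll6 passed the filter on low counts through footprints alone, the kind in which it is high. Its ratio is given as a value without a test, and Stag3 passed only with the kinds combined. The remaining members were tighter and did not overlap. Cltc, the clathrin heavy chain that coats endocytic vesicles, had 1166, 1360 and 1762 CPM in footprints and 242, 336 and 477 CPM in total mRNA (2.05, SE 0.13, adjusted p = 3.15e-09). Ptprz1, a receptor tyrosine phosphatase of glia and progenitors, had 221, 326 and 436 CPM against 47.9, 78.0 and 133 CPM (2.05, SE 0.14, adjusted p = 5.34e-09). Pcsk1, the prohormone convertase of dense-core vesicles, had 27.9, 48.0 and 117 CPM against 6.42, 15.8 and 20.5 CPM (2.01, SE 0.16, adjusted p = 1.94e-08). Just outside the 15 lay Ipo7, an importin, at 1.98.

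**Figure D2:**
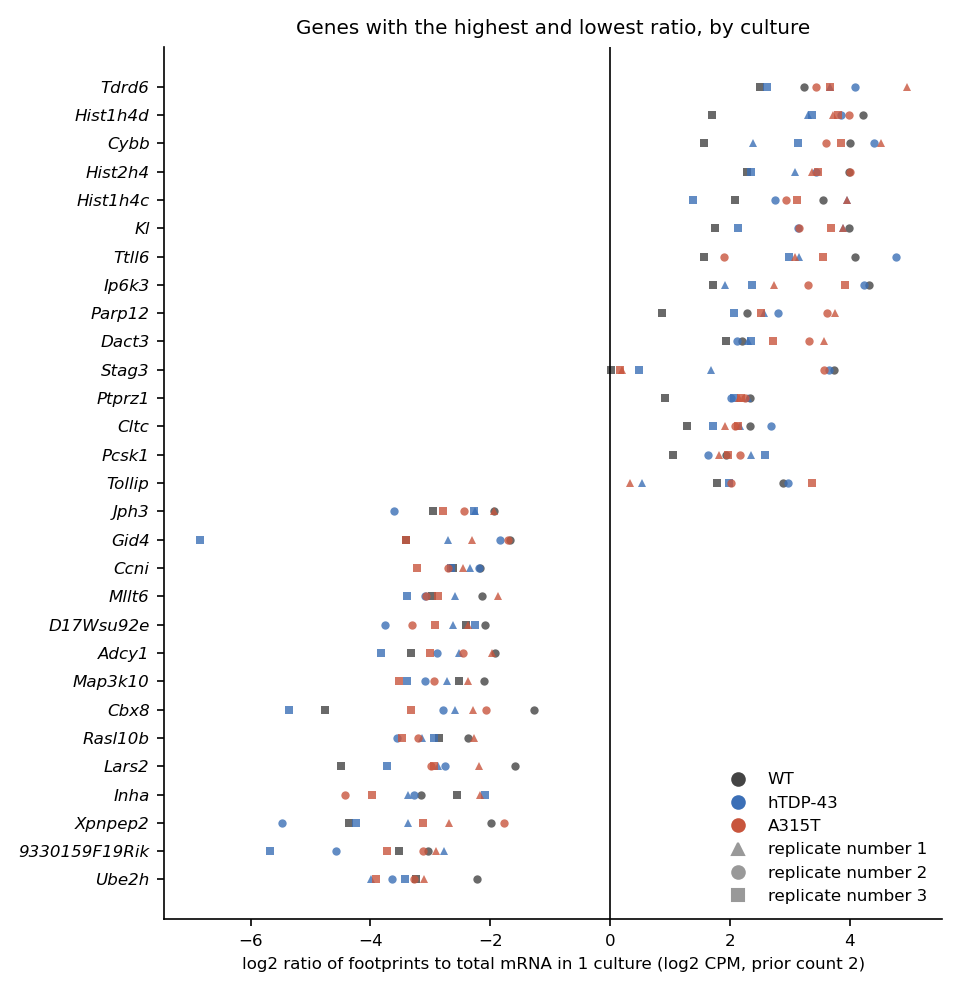
Log2 ratio of footprints to total mRNA in each of 8 cultures for the 15 genes with the highest ratio and 14 of the 15 with the lowest (x axis: difference of log2 CPM with a prior count of 2, colours: genotype, symbols: replicate number). All points of the upper set lie above 0 and all points of the lower set below 0, as the naming rule required, and Gid4 and Cbx8 show the widest range between cultures.

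At the low end lay mRNAs with many total reads and few footprints. Rasl10b (chr11:83409137-83421039), a Ras-like GTPase, had 45.9, 68.6 and 155 CPM in footprints and 495, 598 and 752 CPM in total mRNA. The kinds were far apart in every culture (log2 ratio −2.92, SE 0.15, adjusted p = 6.44e-10, 7.55-fold lower). Map3k10, a kinase upstream of JNK, had 48.9, 75.6 and 130 CPM against 411, 549 and 686 CPM (−2.75, SE 0.15, adjusted p = 8.22e-10). Adcy1, the calmodulin-activated adenylyl cyclase of neurons, had 241, 336 and 655 CPM against 1934, 2120 and 3425 CPM (−2.70, SE 0.18, adjusted p = 4.39e-09). Ccni, a cyclin, had 42.9, 73.1 and 95.4 CPM against 366, 421 and 463 CPM (−2.54, SE 0.12, adjusted p = 5.55e-10), and its cultures spanned only −3.22 to −2.17.

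Of the lowest genes, Ube2h, 9330159F19Rik, Xpnpep2, Inha and Gid4 passed the filter on low counts through total mRNA alone, the kind in which they are high, so their ratios are given as values without a test. Ube2h (chr6:30211289-30304539), a ubiquitin-conjugating enzyme, stood lowest under the naming rule, at 3.25, 6.15 and 14.2 CPM in footprints and 65.6, 71.0 and 75.1 CPM in total mRNA (−3.36). Only 11.5% of its exon bases are coding, and the log2 ratio after division by that share was −1.63. Coding sequence makes up 74.4% of the exons of Inha, the inhibin alpha subunit, at 2.04, 5.11 and 10.9 CPM against 29.2, 57 and 62.6 CPM (−3.17, and −4.12 after that division). Lars2, at 3896, 9418 and 16835 CPM in footprints and 28653, 56415 and 257490 CPM in total mRNA, had a ratio of −2.94 (SE 0.25, adjusted p = 4.69e-08), or −2.57 without the 2 cultures rich in its reads. Whether all reads counted for Lars2 come from its mRNA was not tested. Cbx8, a Polycomb subunit, ran from −5.37 to −1.27 between cultures (fitted −2.87, and −2.30 without the same 2). Also among the lowest 15 were 9330159F19Rik (−3.27), Xpnpep2 (−3.19), D17Wsu92e (−2.64), Mllt6 (−2.57), Gid4 (−2.51) and the junctophilin Jph3 (−2.42), and the next gene was Atxn7l3, also at −2.42. For genes that share exon sequence with a neighbour, reads over both genes were not assigned, so the counts cover the unshared exon parts. The effect of these missing reads on the ratios was not tested. Among such genes the 5 ratios farthest from 0 were those of Tspyl4 (−3.84), the potassium channel gene Kcna6 (−3.57), Dgcr2 (−3.54), Hnrnpu (−3.54) and Ackr1 (−3.51). All 5 passed the filter through total mRNA alone, which admits low ratios of this size and seldom high ones, so their direction is no result.

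Genes of protein folding had high ratios as a group. Of 34 tested chaperone genes, 27 were higher in footprints and 3 lower, with a median log2 ratio of 1.13 that ranged from 0.98 to 1.30 over the 8 cultures. Over all protein-coding genes 30% were higher and 33.2% lower, and each list count below is to be read beside these shares. Hspa5, the BiP chaperone of the endoplasmic reticulum, had 362, 410 and 573 CPM in footprints and 106, 126 and 148 CPM in total mRNA (log2 ratio 1.8, SE 0.11, edgeR adjusted p = 2.89e-09). Its partner Hsp90b1 had 196, 247 and 314 CPM against 48.3, 61.5 and 97.2 CPM (1.94). In the cytosol, the constitutive Hspa8 had a log2 ratio of 1.71 and Hsp90ab1 1.29, and Tcp1, a subunit of the chaperonin that folds actin and tubulin, had 148, 212 and 255 CPM against 83.4, 88.3 and 106 CPM (1.18). The libraries did not overlap for any of these 5 genes, against 23.9% without overlap among all protein-coding genes. Hspa5, Hspa8 and Tcp1 were chosen after their values were seen. The 3 lower genes were J-domain co-chaperones: Dnajc5, which guards synaptic vesicles, at 248, 303 and 350 CPM against 573, 638 and 685 CPM (−1.10), Dnajb2 (−0.53) and Dnaja1 (−0.30). For Dnajc5 the sign turned after division by the coding share (1.06).

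Proteasome, lysosomal and secretory genes showed the same direction. Of 31 proteasome genes 29 were higher and 1 was lower (median 1.05), and of 35 lysosomal and secretory genes 31 were higher and 1 was lower (median 1.07). Psmc6, an ATPase of the proteasome base, had 101, 133 and 168 CPM in footprints and 28.6, 40.5 and 57.5 CPM in total mRNA (1.71), whereas Psmd11, a lid subunit, had 5.00, 13.2 and 14.3 CPM against 29.9, 34.2 and 40.7 CPM (−1.53) and passed the filter through total mRNA alone. Psap, the precursor of saposins, had 1862, 2207 and 2656 CPM against 609, 1036 and 1249.6 CPM (1.20). Scg3, a granin of secretory granules, had 169, 204 and 250 CPM against 48.3, 58.4 and 81.9 CPM (1.65), and Cpe, the carboxypeptidase that trims neuropeptides, had a ratio of 1.15. Pcsk1n, a small inhibitor of prohormone convertases, was the lower member (−0.69). Extracellular matrix genes were higher in 14 of 20 tested cases and lower in 2, among them Sparcl1 (1.72) and Reln, the secreted guide of cortical layering (644, 882 and 1405 CPM against 214, 353 and 630 CPM, 1.45). Their median of 0.59 was 0.05 after division by the coding share.

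Energy metabolism divided by genome. Of 75 tested nuclear genes for oxidative phosphorylation 70 were higher in footprints and none was lower, with a median log2 ratio of 0.99. Atp5a1 and Atp5b, the catalytic core of ATP synthase, each had a ratio of 1.05, with Atp5b at 1464, 1578 and 1739.6 CPM in footprints and 636, 795 and 883 CPM in total mRNA, and the highest called member was Ndufa11, a complex I subunit (157, 190 and 272 CPM against 43.8, 66.6 and 86.1 CPM, 1.53). The cultures ranged from 0.55 to 1.78 in their median, with WT replicate 3 and hTDP-43 replicate 3 at the top, and the median was 0.85 without these 2. Of 13 genes encoded in mitochondrial DNA 9 could be tested, of which 1 was higher and 6 lower (median −0.49, and −1.07 without the same 2 cultures). The cultures scattered from −1.21 to 0.80. Transcripts encoded in mitochondria are translated by mitochondrial ribosomes, so their footprints are of another particle. For mt-Nd6 the values were 65.8, 121 and 238 CPM in footprints and 132, 375 and 860 CPM in total mRNA (−1.62). The gene called higher, mt-Atp8 (1.04), overlaps mt-Atp6 (−1.53), and its ratio was −0.33 after division by the coding share. Glycolysis genes were higher in 14 of 16 cases and lower in none (median 0.65), with Aldoa at 890, 985 and 1398 CPM against 340, 480 and 575 CPM (1.15) and Pgk1 at 1.35.

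**Figure D3:**
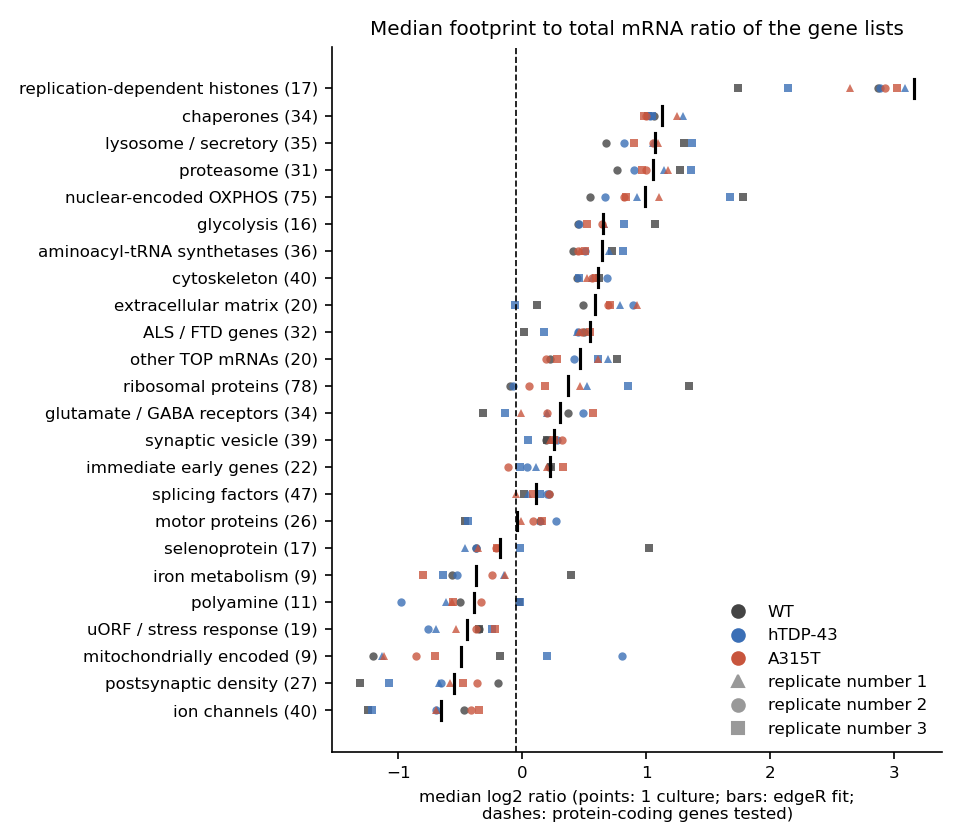
Median log2 ratio of footprints to total mRNA for 24 gene lists, with the number of genes tested in brackets (x axis: log2 ratio, points: 1 culture each from log2 CPM with a prior count of 2, coloured by genotype and shaped by replicate number, black bars: median of the edgeR ratios). Histones lie at 3.17, chaperones at 1.13 and ion channels at −0.65, and the dashed line marks the median of protein-coding genes.

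Cytoskeletal mRNAs were mostly well occupied. Of 40 tested cytoskeleton genes 24 were higher and 3 lower (median 0.61, with cultures between 0.44 and 0.68). Actb, beta-actin, had 3959, 4956 and 5944 CPM in footprints and 1483, 1584 and 2027 CPM in total mRNA (1.58, SE 0.10, adjusted p = 2.58e-09), while Actg1, gamma-actin, had 414, 524 and 613 CPM against 455, 893 and 1043 CPM (−0.67). Tubb2a had the highest ratio of the list (1404, 1515 and 1760.5 CPM against 419, 501 and 576 CPM, 1.67). Tubb3, the neuronal tubulin, stood at 1.18 and Map2, which marks dendrites, at 1.20, and Mapt, the axonal tau protein, was lower (747, 901 and 1149 CPM against 1082, 1135 and 1411 CPM, −0.40). Actins and tubulins have close paralogues and pseudogenes, so reads that could not be assigned uniquely may be missing from either kind. Of 26 motor protein genes 8 were higher and 7 lower (median −0.05), shares close to the 30% and 33.2% of all protein-coding genes. Kif5a, a neuronal kinesin, was lower (−0.59), and the dynein heavy chain Dync1h1 was not called (−0.18, adjusted p = 0.259).

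The presynaptic list held genes of both directions. Of 39 synaptic vesicle genes 20 were higher and 10 lower, with a median of 0.26. Among all protein-coding genes 30% were higher and 33.2% lower, so the 10 lower genes are no trait of the list. Snap25, the SNARE of the plasma membrane, had 873, 1005 and 1179.8 CPM in footprints and 339, 421 and 478 CPM in total mRNA (1.27, SE 0.10, adjusted p = 1.6e-08). The vesicle proteins Syp and Syn1 each had a ratio of 0.91, with Syp at 1550.4, 1893 and 2051 CPM against 832, 1003 and 1138 CPM. Lower were Cplx2, complexin 2, at 266, 391 and 487 CPM against 1016, 1259.9 and 1492 CPM (−1.74), Bsn, the active zone scaffold bassoon (−1.09), and Slc17a7, the vesicular glutamate transporter of cortical neurons (360, 448 and 556 CPM against 425, 832 and 999 CPM, −0.81). For Cplx2 the ratio was 0.49 after division by the coding share.

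Postsynaptic scaffolds and ion channels had low ratios. Of 27 tested genes of the postsynaptic density 17 were lower in footprints and 2 higher (median −0.55), and of 40 ion channel genes 24 were lower and 6 higher (median −0.65). Of the postsynaptic genes 26 passed the filter in both kinds and 1 through total mRNA alone. Of the channel genes 35 passed in both kinds, 4 through total mRNA alone and 1 with the kinds combined. Entry through total mRNA alone admits low ratios more readily than high ones. Shank1 had 210, 271 and 513 CPM in footprints and 948, 1147 and 1945 CPM in total mRNA (−2.10, SE 0.15, adjusted p = 9.51e-09). Shank3 had 115, 150 and 228 CPM against 539, 587 and 673 CPM (−1.91), Dlgap3, which links the Shank proteins to PSD-95, had 86.8, 155 and 205 CPM against 492, 692 and 840 CPM (−2.20), and Dlg4, PSD-95 itself, had 317, 375 and 501 CPM against 612, 1191 and 1366 CPM (−1.51). No library of one kind reached the other for these 4 scaffolds, against 23.9% without overlap among all protein-coding genes. Shank3 and Dlg4 were chosen after their values were seen. The 2 higher genes were Camk2d (0.55) and Dlg3 (0.28), and the ratios of the abundant kinase subunits Camk2a (−0.15, adjusted p = 0.135) and Camk2b (−0.07, adjusted p = 0.498) did not pass the test. Within the channel list, the potassium channel gene Kcnh3 had the lowest ratio (25, 52.3 and 77.6 CPM against 168, 237 and 284 CPM, −2.06), and Cacna1i, a T-type calcium channel, had 55.0, 78.4 and 105 CPM against 219, 279 and 342 CPM (−1.77). Cacna2d1, an auxiliary calcium channel subunit, was higher (328, 388 and 560 CPM against 125, 176 and 275 CPM, 1.19). WT replicate 3 and hTDP-43 replicate 3 had the lowest medians for both lists, and without them the medians were −0.42 for the postsynaptic density and −0.54 for the channels.

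Transmitter receptors leaned the other way, with 15 of 34 glutamate and GABA receptor genes higher and 9 lower (median 0.30). The median was below 0 in 3 of 8 cultures, WT replicate 3 (−0.32), hTDP-43 replicate 3 (−0.14) and A315T replicate 1 (−0.0082), and reached 0.57 in A315T replicate 3. Gria3, an AMPA receptor subunit whose exons overlap those of Gm22413, had 78.2, 106 and 117 CPM in footprints and 24.3, 45.0 and 71.0 CPM in total mRNA (1.23). The AMPA receptor subunit Gria2 (0.85) and the metabotropic Grm3 (1.31) were also higher. Lower were the kainate subunit Grik5, at 120, 135 and 172 CPM against 473, 549 and 634 CPM (−1.94), and the NMDA subunit Grin2b (−0.99, or 0.11 after division by the coding share). Of 22 immediate early genes 7 were higher, a share near that of all genes, and 4 lower (median 0.23), and after division by the coding share 12 were higher and 5 lower. Fos had 10.0, 41.4 and 114 CPM against 9.38, 23.6 and 63.0 CPM (0.93), Egr1 was at 0.75, and Arc was not called (−0.13, adjusted p = 0.376). The lower genes were Jund, whose exons overlap those of Gm11175 (43.2, 83.4 and 115 CPM against 145, 246 and 318 CPM, −1.55), Fosl2 (−0.67, or 0.53 after the division), Btg2 (−0.54) and Homer1 (−0.39).

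Genes of the translation machinery were less uniform than chaperones. Of 78 tested ribosomal protein genes 36 were higher and 9 lower, with a median of 0.37, and the median of the cultures ran from −0.10 in WT replicate 2 to 1.35 in WT replicate 3. Without the 2 Lars2-rich cultures it was 0.23, and within replicate number 2 alone it was −0.02. Rpl35 had the highest ratio (32.3, 41.6 and 53.9 CPM in footprints against 8.35, 15.3 and 25.2 CPM, 1.25) and Rpsa the lowest (51.9, 63.7 and 79.8 CPM against 91.7, 206 and 274 CPM, −1.61). Rpl8 was higher (0.60) but stood at −0.62 after division by its coding share. Of 20 other genes with known TOP mRNAs 12 were higher and 3 lower (median 0.47), and after division by the coding share 7 were higher and 7 lower (median 0.093). The elongation factor Eef1a1 had 1027, 1106 and 1272 CPM against 611, 705 and 863 CPM (0.64), Npm1 was at 1.39, and Eef2 was not called (−0.01, adjusted p = 0.952), while Pabpc1, the poly(A)-binding protein, was lower (67.7, 128 and 155 CPM against 280, 316 and 412 CPM, −1.44). Of 36 aminoacyl-tRNA synthetase genes 25 were higher and 4 lower (median 0.64), led by Dars (1.4), and Lars2 was the lowest. After the division 14 of them were higher and 11 lower (median 0.19). Ribosomal protein genes have many processed pseudogenes, which limits unique assignment of reads.

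TOP tracts were read from the first bases of the annotated transcripts (RefSeq, GRCm38.p6), counted as a C at the start site followed by at least 4 further pyrimidines. They occurred in 13 of 57 ribosomal protein genes with a start sequence (22.8%), 4 of 14 other TOP genes (28.6%) and 251 of 8078 tested genes overall (3.11%). The count depends on the annotated start. Rpl27a, which opens with a run of 16 pyrimidines, begins with a T there and was not counted. These shares therefore describe annotated starts, and genes not counted may still have a TOP tract. The first 25 bases of 4 such genes are given with the pyrimidine run in capitals.
Rpl35 (chr2:39005107-39005131, minus strand): CTCTTTCTCTCgaaccaggctgctt
Rps6 (chr4:86857343-86857367, minus strand): CTCTTTTTCgtgacgcctcccaggc
Rack1 (chr11:48800360-48800384, plus strand): CTTTTTCTCCacagggtcgtggtgg
Nap1l1 (chr10:111473227-111473251, plus strand): CTTTTTTagcgccatctgctcgcgg

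Their log2 ratios were 1.25 for Rpl35, 0.57 for Rack1, which sits on the small ribosomal subunit, 0.36 for the histone chaperone Nap1l1 and 0.34 for Rps6, the last of which did not pass the test (adjusted p = 0.0527). Over all genes the median was −0.03 with such an annotated start and −0.04 without, a split that leaves known TOP genes in the second group.

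Lists of genes with known control of translation were examined next. Of 19 tested genes with regulatory upstream reading frames or a part in the stress response 12 were lower and 2 higher (median −0.45), and after division by the coding share 9 were lower and 6 higher (median −0.30). Of these 19, 9 passed the filter through total mRNA alone, Ddit3 and Ppp1r15a among them. Atf4, the transcription factor induced in the integrated stress response, had 126, 191 and 276 CPM in footprints and 128, 254 and 348 CPM in total mRNA, an overlapping range (−0.38, SE 0.14, adjusted p = 0.0286), and within replicate number 3 alone its ratio was 0.14. Ppp1r15a, the phosphatase subunit that ends that response, was at −0.88, Ddit3 at −0.68 and Atf5 at −0.76. Mief1, a mitochondrial fission receptor, was the lowest (18.5, 24.0 and 30.8 CPM against 51.6, 64.3 and 109 CPM, −1.34). The 2 higher genes were Uchl1, an abundant neuronal deubiquitinase (1.10), and the tRNA synthetase gene Eprs (0.62). Of 11 polyamine genes 7 were lower and 2 higher (median −0.39), against 4 and 2 after the division (median −0.11). Of these 11, 3 passed the filter through total mRNA alone, a route that admits low ratios more readily than high ones. The antizymes Oaz1 (−1.08) and Oaz2 (70.3, 77.2 and 105 CPM against 101, 203 and 224 CPM, −1.22) and the decarboxylase Odc1 (−0.39) were among the lower ones. Of 17 selenoprotein genes 6 were lower, a share near the 33.2% of all protein-coding genes, 1 was higher and 10 were not called (median −0.18). After the division 7 were lower and 4 higher (median −0.44). Gpx4 was among those not called (−0.08, adjusted p = 0.677).

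Iron-regulated genes went in both directions. Of 9 tested genes all were called, 5 lower and 4 higher (median −0.38), and after division by the coding share 4 were lower and 3 higher (median 0.0095). Ferritin heavy chain Fth1 had 199, 272 and 365 CPM in footprints and 319, 924 and 1192 CPM in total mRNA (−1.63, SE 0.16, adjusted p = 2.57e-07), and light chain Ftl1 had 14.3, 28.8 and 41.7 CPM against 42.2, 72.7 and 112 CPM (−1.47, SE 0.20, adjusted p = 7.37e-06). Both were lower in all 8 cultures. The transferrin receptor gene Tfrc, whose hairpins lie in the 3′ UTR, had 55.9, 90.2 and 202 CPM against 16.8, 44.9 and 90.7 CPM (1.20, SE 0.12). App, the amyloid precursor, was also higher (2581, 3186 and 3442 CPM against 943, 1052 and 1286 CPM, 1.56).

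A hairpin of the iron-responsive kind was searched in 5′ UTRs, as a loop of CAGTGN over a stem of 5 base pairs with a C bulge below it, on the mRNA strand only. It was found in 10 of 9668 genes (0.103%). The hairpins of both ferritin genes are shown, with the loop in capitals, because both genes were low.
Fth1 (chr19:9982732-9982761, plus strand, 126 bases before the start codon): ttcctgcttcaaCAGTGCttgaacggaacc
Ftl1 (chr7:45459778-45459807, minus strand, 164 bases before the start codon): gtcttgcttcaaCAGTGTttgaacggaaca

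In the other 8 genes with a match the log2 ratio ran from −0.85 (Nfib) to 1.02 (Eif2s1), and the median of all 10 was −0.37.

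Messenger RNAs of RNA-binding and disease genes were also examined, as the cultures model a TDP-43 proteinopathy. Of 32 tested genes linked to ALS or frontotemporal dementia 17 were higher and 6 lower (median 0.55, and 0.20 after division by the coding share). Tardbp itself, at chr4:148612382-148627019 (GRCm38), had 61.8, 77.4 and 97.3 CPM in footprints and 54.3, 63.3 and 104 CPM in total mRNA, which overlap, and was not called (0.22, SE 0.11, adjusted p = 0.0936). Its exons overlap those of Masp2, and whether reads of the human transgene align to it was not tested. Matr3 was at 1.28, Sod1 at 0.70 and Ubqln2, a ubiquilin that shuttles proteins to the proteasome, at 573, 762 and 875 CPM against 244, 259 and 276 CPM (1.52). Vapb, an anchor at endoplasmic reticulum contacts, was lower (104, 117 and 137 CPM against 213, 231 and 265 CPM, −0.98) but stood at 0.92 after division by the coding share. Of 47 splicing factor genes 17 were higher and 14 lower (median 0.11), shares near the 30% and 33.2% of all protein-coding genes. After the division 31 were higher and 6 lower (median 0.65). Their median coding share was 24.6%, and divided ratios lean high where that share is small.

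Few transcripts known as noncoding could be measured, and reads matching annotated noncoding RNA had been removed before alignment. Of 26 listed long noncoding genes 4 were tested, and all were lower. Malat1, Meg3 and Rian passed the filter through total mRNA alone, the kind in which they are high, so their direction is no result. Malat1, a nuclear RNA, had 0, 4.74 and 19.9 CPM in footprints and 34.5, 79.0 and 181 CPM in total mRNA (−3.52), and Meg3 had 0, 14.8 and 30.4 CPM against 46.8, 89.1 and 137 CPM (−2.36). Rian was at −1.29, and Snhg11, which the annotation of the files counts as protein-coding, at −2.43 (1.21 after division by its annotated coding share). Of 110 genes tested that are not protein-coding 57 were lower and 31 higher, and the 10 lincRNAs had a median of −1.62.

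Transcript architecture went along with the ratio across protein-coding genes. The median coding share of exon bases was 37.9%, and the median log2 ratio rose over quintiles of that share from −0.31 in the lowest to 0.19 in the highest, a difference of 0.50 (Spearman coefficient 0.213 over 10224 genes). It went down from 0.29 to −0.39 over quintiles of 3′ UTR length (−0.265) and from 0.03 to −0.20 over quintiles of 5′ UTR length (−0.106), and changed little with coding length (0.07 to −0.11, −0.065). After the coding share was divided out these coefficients were 0.106 for 3′ UTR length, 0.013 for 5′ UTR length and −0.436 for coding length. Genes share libraries, depth and base composition in these comparisons, and no test was made. Since footprints lie mostly in coding sequence while total mRNA reads cover all exons, the coding share enters the ratio by counting alone. After the share was divided out, 3726 genes (36.4%) were higher and 3427 (33.5%) lower, and the genes at the ends were in part others. The divided ratio followed the coding share more closely than the undivided one and in the opposite direction (−0.603 against 0.213), with medians from 1.00 in the lowest quintile of the share to −0.72 in the highest. A value after division therefore leans high for a gene with a small coding share and low for one with a large share, and both scales keep a relation to the share. The highest 10 were then Hist2h4, Cybb, Mpc2, Snap25, Edil3, Dad1, Ndufb7, Tollip, Fabp5 and Atp5g1, and among the lowest 10 were Inha, Lars2, Map3k10, Lrr1, Flna, Xpnpep2, Kcnh3, Deaf1 and Shank1. Of those lowest, Inha, Lrr1, Flna and Xpnpep2 passed the filter through total mRNA alone. Snap25, with a coding share of 10.8%, went from 1.27 to 3.09, and Shank1, with 78.4%, from −2.10 to −3.13.

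Base composition and the 5′ end showed gradients of similar size. Over quintiles of coding GC content the median ratio went from 0.26 in the lowest to −0.41 in the highest (Spearman coefficient −0.287, and −0.332 after division by the coding share), and over quintiles of 5′ UTR GC content from 0.12 to −0.37 (−0.213). Genes without an ATG in the 5′ UTR had a median of 0.13 (4469 genes), those with 1 had −0.10 (2190), those with 2 had −0.19 (1034) and those with 3 or more had −0.22 (1975). With a purine 3 bases before the start codon and a G right after it the median was 0.02 (4542 genes), with 1 of these features −0.04 (4683) and with neither −0.23 (656). Quartiles of neighbouring groups overlapped widely in every one of these comparisons, and GC content also affects amplification and sequencing of both library kinds, whose part was not tested.

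**Figure D4:**
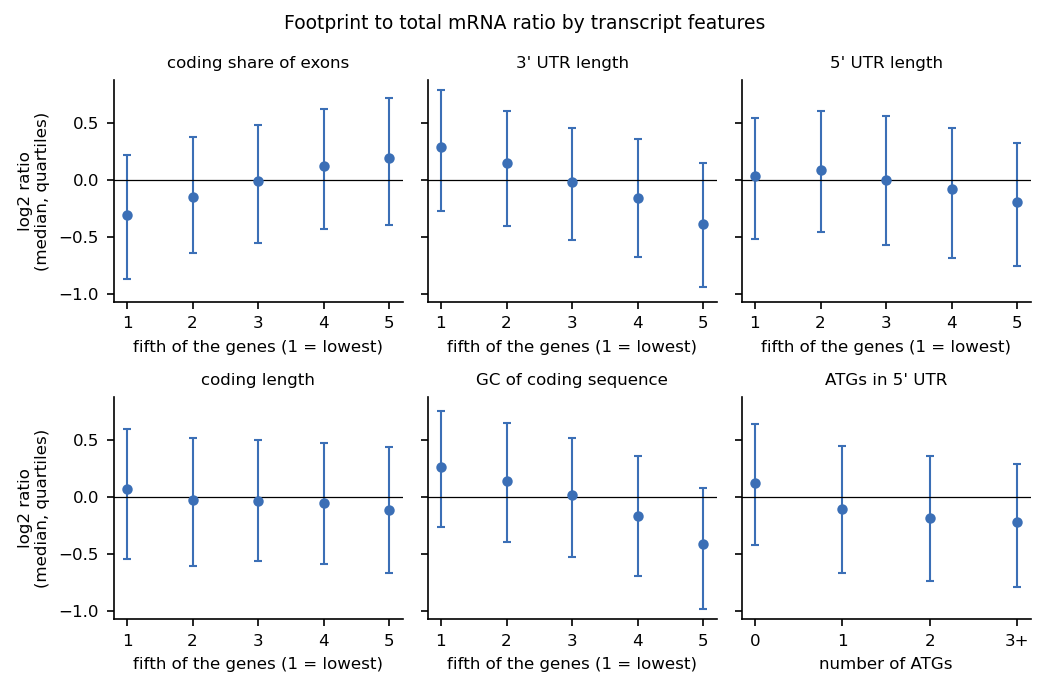
Log2 ratio of footprints to total mRNA by transcript features of protein-coding genes (points: median, bars: 25th to 75th percentile, x axes: quintiles of the genes from lowest to highest value, or the number of ATGs in the 5′ UTR). Medians go up with the coding share (−0.31 to 0.19) and down with 3′ UTR length (0.29 to −0.39), coding GC content (0.26 to −0.41) and upstream ATGs (0.13 to −0.22), with wide overlap of the bars.

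The genotype made no difference to the ratio that passed the test. With edgeR's quasi-likelihood test of the interaction between library kind and genotype, 0 of 10337 genes (0%) were called, with 114 (1.10%) at an unadjusted p under 0.05, and DESeq2 also called 0. For single contrasts 143 genes lay under that unadjusted threshold for hTDP-43 against WT, 183 for A315T against WT and 84 for A315T against hTDP-43. With WT replicate 2 left out, so that WT rested on the Lars2-rich replicate 3 and its spread was taken from the other genotypes, 116 genes were called, and with WT replicate 3 left out 1 gene was called (Nfkb1, named after its value was seen). A missing call does not show that the genotypes had equal ratios.

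Between replicate numbers, each of which carries 1 date, the ratio differed for 20 genes (0.193% of 10337), 14 of them protein-coding. With the replicate number as the block in place of the culture edgeR called 0 (690 at an unadjusted p under 0.05, against 926 with the culture), library totals alone left 11 and DESeq2 called 17, of which 13 were among the 20. Car9 and Stag3 had the smallest adjusted p (0.000883 each), followed by D630039A03Rik (0.00387), and Cbx8, Yipf1 and Tollip were also called. For Stag3 all 3 cultures of number 2 had log2 ratios of at least 3.57 and those of numbers 1 and 3 lay between 0.02 and 1.68. Within each number alone, the chaperone list kept a median of 1.35, 1.05 and 1.00 for numbers 1, 2 and 3, the histone list of 3.45, 3.57 and 2.51, and the channel list of −0.62, −0.36 and −0.84. Other lists moved, with medians of −0.083, −0.63 and 0.19 for iron genes, −0.40, −0.36 and 0.31 for selenoproteins, 0.17, 0.13 and −0.25 for motors, 0.82, 0.74 and 0.16 for the extracellular matrix and 0.56, −0.02 and 0.78 for ribosomal proteins.

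In MN1 cells, a mouse motor neuron-like hybrid line, 6 cultures transfected with GFP, hTDP-43 or A315T gave a second set of ratios. These cells received cycloheximide, which arrests elongating ribosomes, before lysis, and the neurons did not, so cell type and drug treatment cannot be told apart. Among 8121 protein-coding genes measured in both, the ratios of neurons and MN1 cells had a Spearman coefficient of 0.826. In the test of the difference 1228 of 11399 protein-coding genes had a higher ratio in neurons (10.8%) and 475 a lower one (4.17%) under TMM, but 480 and 774 under DESeq2's size factors, with the median difference at 0.18 under the first and −0.02 under the second. Calls shared by both scalings were therefore used, namely 437 genes higher in neurons (5.38%) and 331 lower (4.08%) of the 8121, a choice made after seeing the data.

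Histones differed most among the lists. Of 15 histone genes 13 had a lower ratio in neurons and none a higher one, with a median difference 1.73 below that of all genes, and Hist1h1c was 2.19 lower on the log2 scale by TMM (adjusted p = 1.34e-08). Total mRNA was poly(A)-selected, so missing tails and ribosome density cannot be told apart in this difference either. Of the 17 histone genes tested in neurons, 5 passed the filter in both library kinds. Of 78 ribosomal protein genes 17 were lower in neurons and none higher, with the median 0.56 below all genes, and of 44 splicing factors 7 were lower and 1 was higher. In the other direction, 8 of 32 chaperones, 8 of 35 cytoskeleton genes, 6 of 29 synaptic vesicle genes and 5 of 32 lysosomal and secretory genes had a higher ratio in neurons, against 1, 2, 2 and 0 lower. Syp differed by 1.02 (adjusted p = 9.63e-06), Tubb2a by 0.95 (0.00223) and App by 0.81 (0.000246). The kinesin gene Kif21b had a higher ratio in neurons by 2.14 (adjusted p = 7.41e-07). The actin crosslinker gene Flna had a lower one (log2 difference −2.33), given as a value because it passed the filter in neurons through total mRNA alone.

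**Figure D5:**
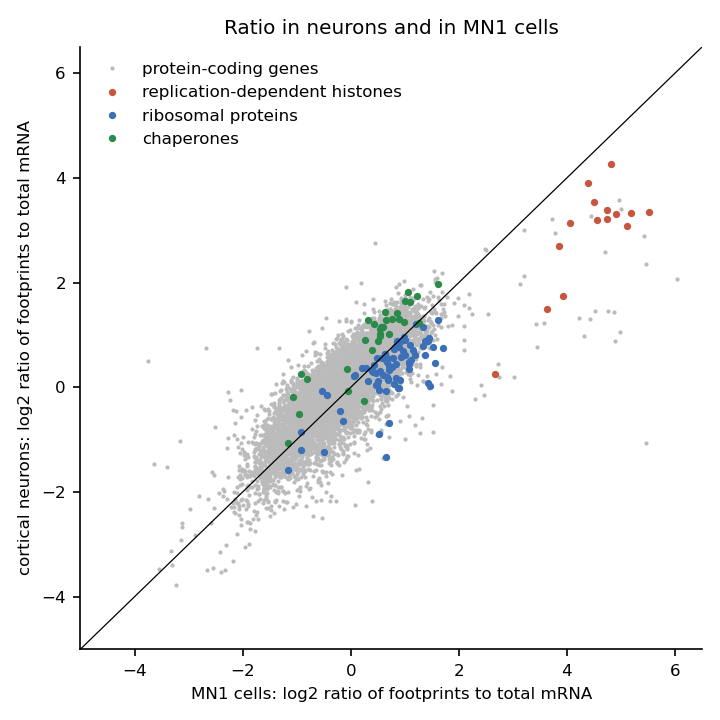
Log2 ratio of footprints to total mRNA in MN1 cells (x axis) and cortical neurons (y axis) for 8121 protein-coding genes measured in both, from 1 edgeR fit with TMM scaling, with the diagonal as a line of equal ratios. Replication-dependent histones (red) lie to the right of the diagonal, ribosomal proteins (blue) mostly so, and chaperones (green) mostly to the left of it.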

How the data were processed

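The deposited files hold raw counts of reads per gene, 1 file per library, made by the authors. Per the labels and the study's methods, adapters were removed with cutadapt 1.8.1, reads matching annotated noncoding RNA were removed with Bowtie2, the rest were aligned with TopHat2 to GRCm38.p4, and uniquely aligned reads over exons of Ensembl genes were counted without strand with featureCounts 1.4.4. Reads over more than 1 gene were not assigned, and footprints were taken from monosome fractions after size selection.

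Counts were analysed with edgeR 4.0.16 in R 4.3.3. Genes passed filterByExpr by library kind (minimum count 10, minimum total 15), libraries were scaled by TMM, and the library kind was tested by the quasi-likelihood test with the culture as a block (10337 genes, Benjamini-Hochberg adjustment over all of them, threshold 0.05). The same fit gave the interactions with genotype and replicate number, and a fit over all 28 libraries gave that with cell type. Values per culture are differences of log2 CPM with a prior count of 2. The fits were tested on simulated counts. The block rests on the labels (genotype, number and date) and was checked in the counts: deviations of a culture's footprint and total mRNA libraries from their group means correlated at 0.0297 to 0.351 (median 0.118), against a median of −0.00617 for libraries of different cultures, and 6 of 8 footprint libraries correlated best with their own total mRNA.

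Coding, UTR and start features came from transcript models of GENCODE vM21, promoters and genome sequence from RefSeq (GRCm38.p6). Base composition, motifs, upstream ATGs and start contexts are descriptions added after the tests had been fixed. Gene lists are of histones, chaperones, proteasome, lysosomal and secretory, extracellular matrix, oxidative phosphorylation, mitochondrially encoded, glycolysis, cytoskeleton, motor, synaptic vesicle, postsynaptic density, ion channel, receptor, immediate early, ribosomal protein, other TOP, tRNA synthetase, upstream reading frame, polyamine, selenoprotein, iron, ALS and FTD, splicing and long noncoding genes, with no set test. The members and lists were chosen with earlier results of these data known. Named genes are the 15 highest and 15 lowest protein-coding ratios that were called, had 1 sign in all 8 cultures, a mean log2 CPM of at least 5 and no exon overlap with another gene, besides the 5 largest with such an overlap, the 10 at each end after division by the coding share, the 3 most counted and the highest and lowest called members of each list, the gene with the most reads in each library, and any gene called for genotype. A few genes that this rule names or the lists hold are not reported here. Other list members named were chosen after their values were seen. Alternatives were another scaling, tool (DESeq2 1.42.0), filter, block, depth, coding share, culture left out and replicate number.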

Additional observations from a re-analysis of the deposited data

Results flagged for a closer look

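In 5 of 58 genes and gene lists examined, the log2 ratio of 1 culture lay apart from the other 7, with a gap to its nearest neighbour larger, as a share of the whole range, than Dixon's critical value for 8 samples. Chance flags about 1 in 20. For Hist1h4d, WT replicate 3 was at 1.71 and the others lay between 3.31 and 4.22. For Ptprz1, the same culture was at 0.93 and the others between 2.03 and 2.33. The median of the selenoprotein list in that culture was 1.02, above a range of −0.46 to −0.02. WT replicate 3 is the culture whose total mRNA library held the largest share of Lars2 reads (18.8%), and the part of this in the values was not tested. In hTDP-43 replicate 3, which has the shallowest footprint library, Gid4 was at −6.85 with no footprint read, where 3 reads are worth 18.1 CPM, and the others lay between −3.41 and −1.67. The synaptic vesicle list had a median of 0.049 in that culture and of 0.19 to 0.32 in the others.

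Of 23 named genes measured in both cell types, 13 had a ratio that differed between neurons and MN1 cells by the interaction test (edgeR quasi-likelihood, adjusted over 11587 genes). The 23 had been chosen for extreme ratios in the same neurons, so this count is no independent result. Over all protein-coding genes, 10.8% were called higher in neurons and 4.17% lower under the same TMM scaling. Of the genes high in neurons, the difference, neuron minus MN1 on the log2 scale, was −1.39 for Tdrd6, −0.95 for Hist1h4d, −1.59 for Cybb, −1.36 for Hist2h4, −1.86 for Hist1h4c, −1.18 for Kl and −2.12 for Dact3, so that these genes stood out more in MN1 cells. Cltc went the other way (0.51), a call lost under DESeq2's size factors (adjusted p = 0.273). Of the genes low in neurons, the difference was −0.84 for Map3k10, −0.73 for D17Wsu92e, −0.79 for Mllt6, −0.70 for Ccni and −0.97 for Gid4. Gid4 is counted among the 13 but passed the filter in neurons through total mRNA alone, so its call is no result. Cell type and the cycloheximide given to MN1 cells cannot be told apart, nor, for the histones, missing poly(A) tails and ribosome density.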

How the results depend on the processing

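The counts of protein-coding genes higher and lower in footprints (3073 and 3396) stayed within 1.5 times under another scaling, tool, filter, depth or coding share, and with single cultures left out (2834 to 3456 higher, 2668 to 3393 lower). Without the block that pairs libraries by culture they were 2863 and 3274, and with the replicate number as a replicate block 2976 and 3333. Within number 3 alone, with 3 cultures, 1339 and 1553 were called, and with both Lars2-rich cultures set aside, chosen after seeing the data, 3340 and 3757. Division by the coding share gave 1693 genes at least 2-fold higher in place of 853. The median log2 ratio of protein-coding genes (−0.03) was −0.26 without a filter, 0.02 with library totals only, 0.00153 with at least 10 counts in 4 or more libraries of each kind, 0.04 after the coding share, 0.00954 within number 1, 0.00838 within number 3 and −0.04 to 0.03 with single cultures left out.

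Gene lists with a median above that of all protein-coding genes numbered 18, and 18 to 19 with cultures left out. For genotype, 0 calls became 55 without a filter and 0 to 116 with single cultures left out. For replicate number, 20 calls became 11 with library totals only, 202 without a filter and 0 with the number as the block, which for this test is also the fit without the culture. Against MN1 cells, the 1228 genes higher in neurons became 480 with DESeq2's size factors, 525 with DESeq2 and 559 with the stricter filter, and the 475 lower became 774 and 792 under the first and second of these. The cause of these changes was not tested.

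Of the named genes called in the main fit, 21 changed sign when the ratio was divided by the coding share: Rpl8 (−0.62), mt-Atp8 (−0.33), Psmd2 (−0.12), Pkm (−0.18), Slc7a1 (0.28), Azin1 (0.087), Srm (−0.11), Selenot (0.71), Cplx2 (0.49), Grin2b (0.11), Dynll2 (0.69), Fosl2 (0.53), Vapb (0.92), Dnajc5 (1.06), Celf2 (2.11), Elavl3 (0.10), Rbfox2 (0.18), Gars (−0.42), Ncan (−0.13), Snhg11 (1.21) and Mbp (0.57). Within number 3 alone Atf4 (0.14) and Selenow (0.31) did. Sign changes of genes not called in the main fit, such as Gpx4 within number 3, are not counted. Depth limits single cultures most, as 3 reads in the shallowest footprint library are worth 18.1 CPM.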

Other observations

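The non-coding loci that took the most footprint reads had high ratios in all 8 cultures. Gm37194 had 5756, 31928 and 112572 CPM (lowest, median, highest) in footprints and 755, 1927 and 12267 CPM in total mRNA, with a log2 ratio of 3.43 (SE 0.26, edgeR adjusted p = 1.45e-08). Gm14236, which overlaps Ripor3, had 3113, 11405 and 30253 CPM against 578, 1521 and 2219 CPM (2.97). Yipf1, a protein-coding gene that overlaps Gm12869, had 17459, 24686 and 44824 CPM against 1143, 2797 and 21714 CPM (2.86) and was called for replicate number. Whether such reads come from ribosomes was not tested.

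In MN1 cells, genes at the ends of the neuronal range lay on the same side of 0, with log2 ratios of 4.97 for Tdrd6, 5.00 for Cybb, 4.44 for Kl, 4.71 for Dact3 and −3.14 for Lars2.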
